A study of Mus musculus with 2 samples.

Results

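The cells described here are the neurons of the mouse corticoseptal boundary that carry both Zcchc12, a zinc-finger coactivator known from bone morphogenetic protein signalling, and Vstm2l, a small immunoglobulin-domain protein. The single-cell libraries came from E16.5 embryos, 1 library of genotype WT and 1 of genotype Tcf4_cKO, which the series names Tcf4f/f;Emx1Cre. In these embryos a floxed allele of Tcf4, a basic helix-loop-helix E protein, is recombined by Cre from Emx1 (a gene of dorsal telencephalic progenitors). Whether the cells described here descend from cells with Cre was not measured. The labels give neither the floxed exon, nor the Cre status of the WT embryos, nor the number of embryos in a library. Barcodes were kept above a minimum of unique molecular identifiers (UMIs, each marking 1 captured transcript), whose double is 6700, with 500 or more genes and mitochondrial UMIs no higher than 10%. A member among them needed at least 2 UMIs each of Zcchc12 and Vstm2l, no Neurod2, and at most 1 UMI each of Trpc4, Lhx6, Lhx8 and St18. The rule found 147 cells in WT and 136 in cKO, together 283 of 19630 cells of that depth. They were compared with other neurons, 3282 in WT and 4032 in cKO, defined by at least 3 Stmn2 UMIs and few UMIs of cycle, glial and vascular genes. Because the rule leaves out every cell with a Neurod2 UMI, and Neurod2 marks cortical excitatory neurons, the 1913 and 2204 other neurons without Neurod2 were set beside them as a closer comparison.

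The septum is the midline structure beneath the corpus callosum. Its neurons are largely inhibitory, use gamma-aminobutyric acid (GABA), and carry midline transcription factors of the Zic family together with Six3. Other septal and basal forebrain neurons are cholinergic and depend on Lhx8, and migrating interneurons of the ganglionic eminences carry Lhx6; the rule sets both aside.

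Neither genotype had a replicate library, so genotypes were compared without a test. Levels are UMIs summed over the cells of a pool and scaled to 1000000 UMIs of that pool (CPM). All intervals are 95% intervals, Poisson for a level, conditional binomial for a ratio and Clopper-Pearson for a share of cells, and they cover counting error only, not the spread between cells or embryos. The libraries held 116998498 UMIs in WT and 121321247 in cKO. The median depth of the Zcchc12/Vstm2l cells was 9392 UMIs in WT and 8860 in cKO, against 9371 and 8255.5 in other neurons. The libraries shared 23 barcodes among their cells and 0 among the members. Tcf4, the targeted gene, stood at 420 CPM in the WT members and 342 in the cKO members, a ratio of 0.815 (0.722 to 0.920), and at 1482 and 1056 CPM in other neurons, a ratio of 0.713 (0.703 to 0.722). Droplets of 10 to 100 UMIs, which hold mainly free RNA, had Tcf4 at 977 CPM in WT and 711 in cKO, above the level in the members. A 3' tag outside the deleted part would not show the deletion, so these values do not check the genotype.

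The Zcchc12/Vstm2l cells were 1.64% (1.39 to 1.92) of the cells in the WT library and 1.28% (1.07 to 1.51) in the cKO library. Among neurons and members together they were 4.29% (3.63 to 5.02) and 3.26% (2.74 to 3.85). When every cell was first thinned to the UMI minimum, only 23 WT and 26 cKO cells met the rule, or 0.257% (0.163 to 0.385) and 0.244% (0.159 to 0.357), and a lower share in cKO was not detectable at matched depth. The class is narrow by construction. Of the 310 WT and 309 cKO cells with 2 or more UMIs of both genes, the Trpc4 limit removed 80 and 81, the Lhx8 limit 44 and 58, the St18 limit 44 and 33, the Neurod2 limit 23 and 38 and the Lhx6 limit 9 and 14, some cells failing more than 1 limit. Many members sat at the edge of the rule, with exactly 2 Vstm2l UMIs in 85 WT and 66 cKO cells. Just outside it stood 182 WT and 155 cKO cells with 1 Vstm2l UMI that met every other condition, and 38 and 50 with 1 Zcchc12 UMI.

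The working name of these cells is septal projection-like neurons, from the markers Zcchc12, Vstm2l, Syt1, Magel2 and Caly. All 5 markers were above their level in other neurons, but less so, or not, without the Neurod2 cells, and the 3 markers the rule did not use were nearly as frequent in Trpc4 neurons. Zcchc12 lies on chromosome X at 36195904 to 36199158 (GRCm38, plus strand) and Vstm2l on chromosome 2 at 157914653 to 157944719 (plus strand). The members held Zcchc12 at 379.8 CPM in WT and 377.5 in cKO, and Vstm2l at 261.4 and 291.9, values the rule itself set. Syt1, the calcium sensor of synaptic vesicle release, stood at 468 CPM in WT and 594 in cKO, 2.09-fold (1.93 to 2.25) and 2.22-fold (2.06 to 2.38) over other neurons and 1.35-fold and 1.43-fold over those without Neurod2. Caly, a vesicle protein that binds dopamine receptors, stood at 231 and 243 CPM, 3.03-fold (2.70 to 3.38) and 2.53-fold (2.25 to 2.83) over other neurons and 1.94-fold and 1.78-fold over those without Neurod2. Magel2, an imprinted gene of the Prader-Willi region, stood at 53.7 and 51.9 CPM, 2.02-fold (1.59 to 2.53) and 1.56-fold (1.21 to 1.98) over other neurons. Against neurons without Neurod2 its folds were 1.14 and 0.953, so its direction in cKO turned over. At least 1 UMI of Syt1 was found in 78.9% of WT and 86.8% of cKO members against 74.4% and 80.7% of Trpc4 neurons. The shares for Caly were 69.4% and 74.3% against 66.0% and 69.3%, and for Magel2 38.8% and 34.6% against 33.3% and 37.3%. No measurement in these libraries traces an axon, so the word projection in the name was not tested, and the cells are called here by the genes of the rule.

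**Figure D1:**
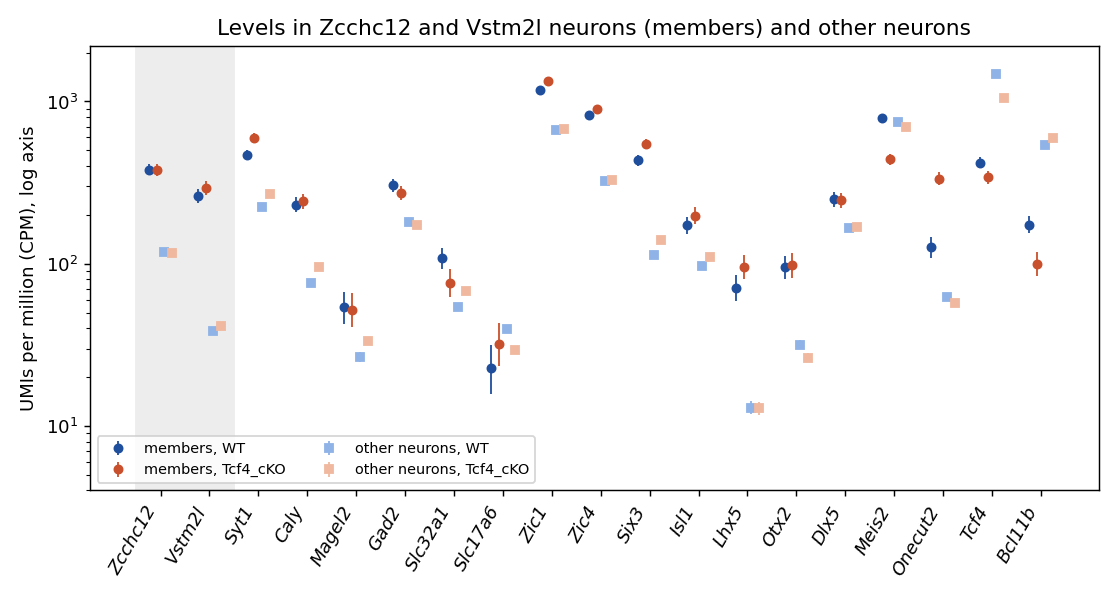
Levels of markers and identity genes, in CPM on a log axis, in the Zcchc12/Vstm2l cells (members, circles) and other neurons (squares) of each library, with 95% Poisson intervals. Zcchc12 and Vstm2l, shaded, were used by the rule; Zic4, Six3 and Lhx5 are higher in members of both libraries, Tcf4 and Bcl11b lower, and Meis2 and Onecut2 differ between the libraries.

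The cells were mainly inhibitory. At least 1 UMI of Gad1, Gad2 or Slc32a1, the GABA-making enzymes and the vesicular GABA transporter, with none of the vesicular glutamate transporters, was found in 126 of 147 WT cells (85.7%, 79.0 to 90.9) and 115 of 136 cKO cells (84.6%, 77.4 to 90.2). The glutamate transporters alone were found in 9 and 4 cells, both kinds in 9 and 13, and neither in 3 and 4. Among other neurons without Neurod2, 90.2% and 90.1% had the GABA genes only. Gad2 had at least 1 UMI in 127 WT and 119 cKO members (86.4% and 87.5%), against 1 of 37 WT and 0 of 28 cKO endothelial cells, which should lack it and had median depths of 17794 and 26021.5 UMIs. After thinning, the shares of members with Gad2 were 61.2% and 61.8%. As a group, 12 of 13 measured GABA identity genes were above other neurons in both libraries, against 37.5% of the 11995 genes measured. In the comparison of members with other neurons, 0.892% of 11995 genes were at least 2-fold higher in both libraries and 1.05% at least 2-fold lower. Against other neurons without Neurod2 the median of the GABA list turned over, from 0.38 and 0.51 on the log2 scale to -0.39 and -0.33, so the Zcchc12/Vstm2l cells held somewhat less of these genes than the remaining inhibitory neurons. Log2 values, and the counts past a fold, have 5 CPM added to both levels, which understates the change of low genes; a fold given for a gene has nothing added.

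Factors of septum and midline were higher than in other neurons, and some were as frequent in neurons that carry Trpc4 (324 in WT, 332 in cKO). Of 20 measured genes in this list, 4 were at least 2-fold higher in both libraries and 1 lower, with medians of 0.62 in WT and 0.83 in cKO, against 0.02 for all genes in each library. Zic4 stood at 828 and 903 CPM, 2.55-fold and 2.74-fold over other neurons and 1.44-fold and 1.60-fold over those without Neurod2. Zic2 stood at 269 and 322 CPM, 2.05-fold and 2.61-fold, and 1.13-fold and 1.47-fold without Neurod2 cells. At least 2 UMIs of Zic4 were found in 81.6% of WT and 91.9% of cKO members, against 81.2% and 81.0% of Trpc4 neurons. For Isl1, a LIM homeobox factor, the shares were 32.7% and 37.5% of members and 45.7% and 59.3% of Trpc4 neurons, and for Six3 59.2% and 71.3% against 32.1% and 39.5%. Six3, a homeobox factor of the anterior midline, stood at 433 and 549 CPM, 3.82-fold (3.51 to 4.14) and 3.93-fold (3.64 to 4.25), and was 2.12-fold and 2.21-fold higher against neurons without Neurod2. Six3os1, its antisense neighbour, stood at 122.9 and 158 CPM; the counting strand is not given in the sources used here, so reads of Six3 and Six3os1 may not be told apart. By level Isl1 was 1.78-fold and 1.80-fold over other neurons but 0.976-fold and 0.981-fold against those without Neurod2. Nr2f1 was the member of the list that was lower, at 4.53 and 10.2 CPM against 26.7 and 34.1. Against neurons without Neurod2 the medians of the list were -0.02 and 0.22. Chat and Slc18a3, the enzyme and transporter of acetylcholine, had 0 UMIs in members of both libraries. The Lhx8 limit of the rule favours this absence. Chat was also rare elsewhere, with at least 1 UMI in 0.274% of WT and 0.298% of cKO other neurons, so nothing particular to the members is read from it. Of 27 hypothalamic and preoptic factors, 12 had no UMI in any member, among them Otp, Sim1 and Nr5a1. The same held for 16269 of all 32285 genes, so the 12 do not set this list apart. The measured factors numbered 10. Of these 10, the homeobox genes Six6, Lhx1 and Lhx5 were at least 2-fold higher in both libraries and Lhx9 lower, with medians of 0.88 in WT and 0.03 in cKO. Six6 stood at 18.8 and 24.1 CPM against 4.39 and 3.67, and Lhx1 at 39.5 and 21.2 against 12.07 and 7.34. The 2 WT members high in Gnrh1, described below, held 13 and 5 Six6 UMIs, and the 1 such cKO member held 11. The Six6 level of the members thus rests in part on these few cells. Between the libraries 3 of 7 tested genes of this list were at least 1.5-fold lower in cKO, Lhx1, Nhlh2 and Pou3f2, and 0 higher. Over all 7097 genes tested in members, 2% were lower and 1.72% higher by this measure. Nhlh2 had 2 or more UMIs in only 10 WT and 11 cKO members.

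A wider set of genes marked the cells in both libraries, 107 of the 11995 at least 2-fold higher and 126 at least 2-fold lower. Without the Neurod2 cells these counts were 24 (0.218% of 11003) and 29 (0.264%). The members hold no Neurod2 by the rule, while 36.0% of the WT and 39.5% of the cKO cells compared held 2 or more Neurod2 UMIs. Pmaip1, which encodes the cell-death protein Noxa, had 130.1 CPM in WT and 114.1 in cKO members and 9.702 and 8.343 in other neurons. Its folds were 13.4 (11.19 to 16.04) and 13.7 (11.2 to 16.7), and 7.35 and 7.24 without the Neurod2 cells. It was carried by a minority of cells, with 2 or more UMIs in 24 WT and 21 cKO members and at most 36 in a cell. Lhx5, a LIM homeobox factor of early forebrain neurons, had 71.2 and 95.8 CPM against 13.0 and 12.9, 5.49-fold (4.41 to 6.78) and 7.44-fold (6.08 to 9.06). Nr4a2, an orphan nuclear receptor, had 67.3 and 128.0 CPM against 15.98 and 24.05, 4.21-fold and 5.32-fold, and 5.89-fold and 6.66-fold without the Neurod2 cells. Lhx5 too was above neurons without Neurod2, 3.11-fold and 4.17-fold.

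Among the other named genes, Fam183b was 6.32-fold and 6.37-fold higher, Igfbp5, a binding protein of insulin-like growth factors, 4.35-fold and 6.02-fold, and Rit2, a neuronal Ras-like GTPase, 3.49-fold and 3.84-fold. Vsnl1, a neuronal calcium sensor, was 6.32-fold and 3.56-fold higher, Snhg11, a long non-coding RNA, 4.34-fold and 3.56-fold, Mia 3.90-fold and 3.28-fold, and Clybl, a mitochondrial lyase, 3.02-fold and 3.70-fold. Each of them was at least 1.67-fold higher against neurons without Neurod2 in both libraries. Most named genes on the low side came closer to level once the Neurod2 cells were left out. Zbtb18, a transcriptional repressor that acts in cortical development, was at 49.8 and 27.1 CPM against 505 and 457. It was 0.942-fold and 0.629-fold of the level in neurons without Neurod2. The Reelin adaptor Dab1, the Slit receptor Robo2, Cttnbp2, Znrf2 and Opcml were 0.108-fold to 0.281-fold of other neurons. Against neurons without Neurod2, Dab1, Cttnbp2, Znrf2 and Robo2 lay between 0.562-fold and 0.987-fold, and Opcml at 1.46-fold and 1.43-fold. Zeb2, a zinc-finger homeobox repressor, remained low, at 77.7 and 44.6 CPM against 394 and 304 and at 0.365-fold and 0.271-fold of neurons without Neurod2. So did Pou3f1, at 0.383-fold and 0.308-fold, and the long non-coding RNA Gm17750, at 0.348-fold and 0.256-fold. Epha4, a receptor of axon guidance, was 0.0958-fold and 0.293-fold of other neurons, and 0.329-fold and 0.889-fold of those without Neurod2.

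**Figure D2:**
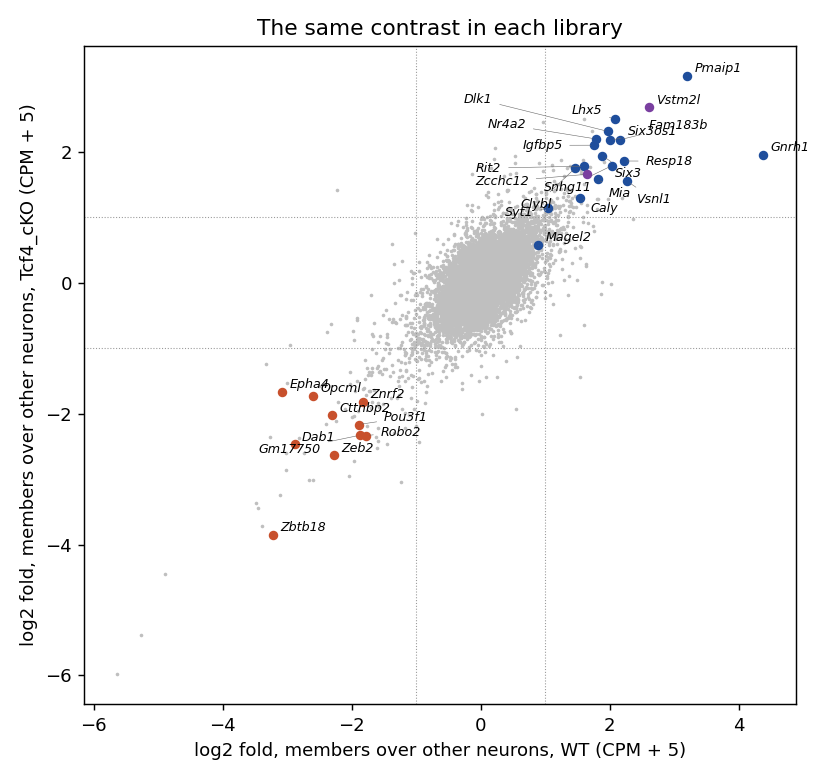
Log2 fold of the Zcchc12/Vstm2l cells over other neurons in WT (x axis) and in cKO (y axis), each gene a point with 5 CPM added; dotted lines mark 2-fold. Named genes are blue where higher and orange where lower, genes of the rule purple; Pmaip1 lies near the diagonal at 13.4-fold and 13.7-fold, Gnrh1 far from it.

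Imprinted genes, many of which are strong in septal and hypothalamic neurons, were higher as a group. Of 30 measured, 23 (76.7%) were above other neurons in both libraries and 3 below, against 37.5% and 32.7% of all genes, with medians of 0.50 in WT and 0.53 in cKO; 3 passed 2-fold in both and none was 2-fold lower in both. Dlk1, a Notch-like ligand, had 137.2 and 142.6 CPM against 31.1 and 24.8. Nap1l5 had 312 and 301 CPM against 128 and 109, and Asb4 had 71.2 and 102 against 28.0 and 33.0. Ndn, a neighbour of Magel2, had 1301 and 1478 CPM, 2.23-fold and 1.91-fold. Against neurons without Neurod2 the medians were 0.12 and 0.16, closer to 0. For dense-core granule and peptide-processing genes the medians were 0.39 and 0.41 against other neurons and 0.30 and 0.27 against those without Neurod2. Its 2 genes past 2-fold in both libraries were Resp18, a granule protein, with 131.4 and 120.0 CPM against 24.3 and 29.5, and Scg2, a granin, with 62.1 and 53.4 against 22.3 and 17.5. Receptors of glutamate and GABA had medians of 0.42 and 0.39, with 21 of 30 (70%) above other neurons in both libraries and Gabrb1, a subunit of the GABA-A receptor, past 2-fold at 40.8 and 46.1 CPM. Without the Neurod2 cells the medians of this list were 0.23 and 0.16 and 0 of its genes passed. Glutamate identity genes had medians of -1.79 and -1.82 and cortical projection neuron genes -1.20 and -1.39, lists that the exclusion of Neurod2 cells touches directly. Axon guidance receptors had 7 of 33 at least 2-fold lower in both and 0 higher, but 2 lower without the Neurod2 cells; among the 7 was Robo1, at 69.2 and 30.7 CPM against 155 and 140.

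The cells lay near each other more often than their share of neurons, but they were a mixture. Among the 15 nearest neighbours of a member, computed on variable genes without those of the rule, 17.8% in WT and 16.2% in cKO were members, against 4.29% and 3.26% of the cells compared. The rule bars Neurod2 cells from membership, so part of this contrast was set in advance. Of neurons without Neurod2 and members together, members were 7.14% and 5.81%. Neurons with St18 made up 12.02% and 10.6% of the neighbours of members against 6.56% and 4.53% of the cells, and neurons with Trpc4 9.84% and 10.4% against 9.45% and 7.97%. The cells compared include Neurod2 cells, so these base shares are low for the same reason. Without Neurod2 cells there were 2060 WT and 2340 cKO cells, members included. Of these, 225 and 189 were St18 neurons and 324 and 332 Trpc4 neurons. On that base Trpc4 neurons were not above their share among the neighbours. Neurons with Neurod2 made up 1.27% and 1.27% against 36.0% and 39.5%, a gap that the rule also set in part. A total of 26 WT and 22 cKO members had no other member among their neighbours. The following subsets were chosen after their values were seen and are descriptions only.

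Genes of striatal neurons marked a first subset. Ebf1, a helix-loop-helix factor of striatal differentiation, had 2 or more UMIs in 18 WT members. Of these, 11 also had 2 or more UMIs of Tac1, the precursor of substance P, and 15 of Foxp1, a forkhead factor, but only 2 had Zic4. Among the other 129 WT members, 1 had Tac1, 21 had Foxp1 and 118 had Zic4. Depth was alike, with medians of 9757.5 and 9364 UMIs with and without Ebf1. In cKO only 3 members had 2 or more Ebf1 UMIs.

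The second subset carried Lhx5. In WT, 27 members had 2 or more Lhx5 UMIs, and of these 16 had Reln, the secreted glycoprotein that guides neuronal layering, 13 Otx2, 10 Pmaip1, 21 Six3 and 1 Meis2. Of the 120 WT members without it, 26 had Reln, 29 Otx2, 14 Pmaip1, 66 Six3 and 78 Meis2. In cKO, 34 members had Lhx5, and of these 11 had Reln, 12 Otx2, 13 Pmaip1, 32 Six3 and 7 Meis2. The cells with Lhx5 were deeper than those without, at medians of 10796 against 9189.5 UMIs in WT and 10750 against 8259 in cKO. Another, small subset carried Slc17a6, the vesicular glutamate transporter of subcortical neurons, in 9 WT and 12 cKO members. In WT 1 of its 9 cells had Gad2 and 6 had Calb2; in cKO 9 of its 12 cells had Gad2 and 1 had Calb2. These cells too were deep, at medians of 17958 UMIs in WT and 16051 in cKO, and the part of depth or of doublets in both subsets was not tested.

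**Figure D3:**
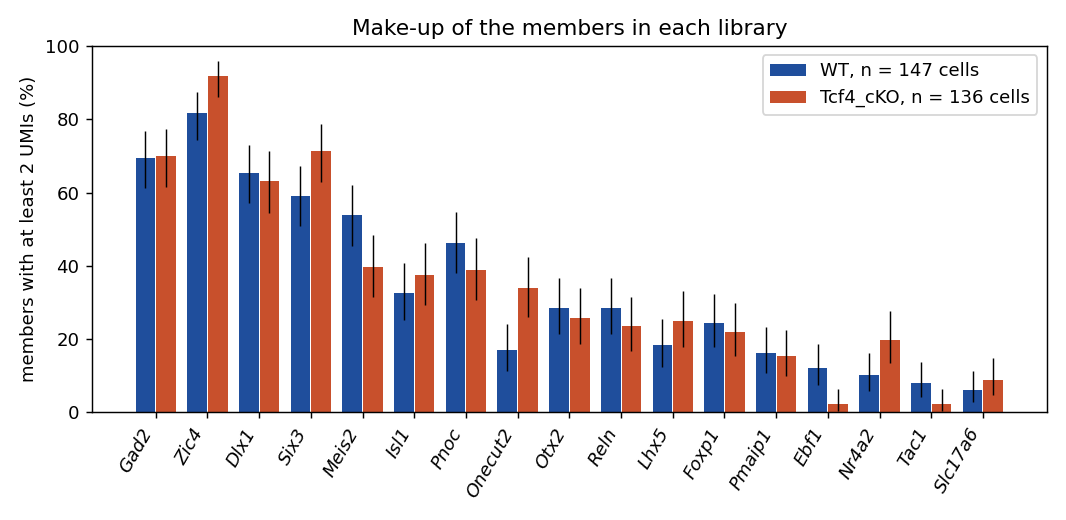
Share of the Zcchc12/Vstm2l cells with at least 2 UMIs of each gene, in percent, for WT (blue, n = 147 cells) and cKO (orange, n = 136 cells), with 95% Clopper-Pearson intervals for counting error. Gad2 is alike in the libraries at 69.4% and 69.9%, Ebf1 and Meis2 are lower in cKO, and Onecut2 and Nr4a2 higher.

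Between the libraries, the members differed in more genes than the neurons around them. Of 7097 genes with at least 50 UMIs in the members of both libraries together, 122 (1.72%) were at least 1.5-fold higher in cKO and 142 (2%) at least 1.5-fold lower. Over the same genes in other neurons, 31 (0.437%) and 24 (0.338%) passed, and in those without Neurod2 21 (0.296%) and 13 (0.183%). The member pools held 1545405 and 1367015 UMIs and the pools of other neurons 33292712 and 35959593, so the counting error of the members is larger and the counts are not comparable as sizes of effect. Of 13 tested GABA identity genes, 19 pan-neuronal genes and 24 genes of synaptic vesicles and release, 0 passed 1.5-fold in either direction, and of 27 imprinted genes 1 was higher, Peg13, and 0 lower. With shares of 1.72% and 2% over all genes, counts this low in lists this small do not set them apart, and single genes could still differ: the Syt1 ratio was 1.27 (1.15 to 1.40). Zcchc12 and Vstm2l, set by the rule, are left out of this reading.

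Genes of striatal projection neurons were lower in the cKO members. Of 8 tested, 5 were at least 1.5-fold lower and 0 higher, with a median log2 ratio of -0.74, against 0.01 for the same list in other neurons and -0.00 for all genes in members. Ebf1 (chromosome 11, 44617317 to 45008091, plus strand) had 324 UMIs in the WT members and 24 in the cKO members, or 209.7 and 17.6 CPM, a ratio of 0.0837 (0.0529 to 0.127). In other neurons the ratio was 0.814, but in those without Neurod2 it was 0.281. The share of members with 2 or more Ebf1 UMIs was 12.2% (7.42 to 18.7) in WT and 2.21% (0.457 to 6.31) in cKO, and with at least 1 UMI after thinning 10.9% and 2.21%. The same share in other neurons was 7.25% in WT and 9.65% in cKO. Ebf1 also had 2 or more UMIs in 34 of 37 WT and 23 of 28 cKO endothelial cells. The 8 endothelial and mural genes summed to 11 CPM in WT and 10.2 in cKO members, against 7.96 and 7.59 in other neurons, with 3 of them (Flt1, Pecam1 and Igfbp7) at 0 in members of both libraries; the part of such cells in the Ebf1 values was not tested. Tac1 (chromosome 6, 7554879 to 7565834, plus strand) had 290 and 23 UMIs, or 188 and 16.8 CPM, a ratio of 0.0897 (0.0559 to 0.137), against 0.188 in other neurons and 0.195 in those without Neurod2. The WT UMIs of Tac1 came from 12 cells with 2 or more, the highest with 55, and the cKO UMIs from 3 such cells, the highest with 12. Foxp1 had a ratio of 0.599 (0.485 to 0.737), Foxp2 0.457 (0.261 to 0.771) and Bcl11b 0.576 (0.465 to 0.710). Among members with at most 1 UMI of Ebf1 and of Tac1, 128 in WT and 131 in cKO, the Foxp1 ratio was 1.03 (0.800 to 1.33), that of Bcl11b 0.897 (0.693 to 1.16) and that of Foxp2 0.458 (0.256 to 0.791). This division uses Ebf1 and Tac1 themselves and was chosen after their values were seen, so nothing is read from the list's median in it. In the same cells the ratio of Tcf4 was 0.669 (0.589 to 0.758), the lowest of the divisions made. It was 0.824 (0.697 to 0.972) in members with 2 or more Meis2 UMIs and 0.905 (0.754 to 1.09) in those with at most 1. In members with 2 or more UMIs of Lhx5 or Otx2 it was 0.952 (0.783 to 1.16). Nothing is read from these Tcf4 values.

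Tcf4 binds E-boxes, the motif CANNTG, as a dimer. The 250 bases before the RefSeq starts of 4 genes are shown to let the reader see that motif. The genes are Zcchc12, which defines the class, Six3, which marks it, and Ebf1 and Tac1, the named genes with the lowest cKO ratios. The sequences are from RefSeq on GRCm38.p6, all on the plus strand, 5′ to 3′, with each CANNTG in capitals. The pattern reads the same on both strands. The positions are chrX:36195654-36195903 for Zcchc12, chr17:85620584-85620833 for Six3, chr11:44617850-44618099 and chr11:44619978-44620227 for the 2 Ebf1 starts, and chr6:7554811-7555060 for Tac1. The gene positions given elsewhere are from GENCODE. For Six3, Ebf1 and Tac1 the RefSeq starts lie downstream of the GENCODE gene starts, so these windows overlap the genes as GENCODE places them.
Zcchc12: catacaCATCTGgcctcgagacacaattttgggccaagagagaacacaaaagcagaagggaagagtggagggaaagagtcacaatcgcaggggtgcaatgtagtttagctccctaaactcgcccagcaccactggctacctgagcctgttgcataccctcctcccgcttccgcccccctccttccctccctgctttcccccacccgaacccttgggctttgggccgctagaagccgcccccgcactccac
Six3: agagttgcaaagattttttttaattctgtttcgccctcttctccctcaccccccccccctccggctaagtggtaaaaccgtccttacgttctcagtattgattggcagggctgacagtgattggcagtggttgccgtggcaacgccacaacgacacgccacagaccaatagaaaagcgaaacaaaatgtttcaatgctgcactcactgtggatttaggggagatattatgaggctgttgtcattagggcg
Ebf1, upstream start: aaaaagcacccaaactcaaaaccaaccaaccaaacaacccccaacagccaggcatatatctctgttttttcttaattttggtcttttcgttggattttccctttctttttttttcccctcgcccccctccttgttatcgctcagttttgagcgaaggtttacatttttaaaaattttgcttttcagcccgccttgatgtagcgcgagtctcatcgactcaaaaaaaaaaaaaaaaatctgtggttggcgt
Ebf1, downstream start: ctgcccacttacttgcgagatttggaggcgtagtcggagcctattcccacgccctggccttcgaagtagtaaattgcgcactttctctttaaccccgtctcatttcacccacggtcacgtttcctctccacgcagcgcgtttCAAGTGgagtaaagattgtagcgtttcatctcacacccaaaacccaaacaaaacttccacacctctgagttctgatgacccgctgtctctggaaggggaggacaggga
Tac1: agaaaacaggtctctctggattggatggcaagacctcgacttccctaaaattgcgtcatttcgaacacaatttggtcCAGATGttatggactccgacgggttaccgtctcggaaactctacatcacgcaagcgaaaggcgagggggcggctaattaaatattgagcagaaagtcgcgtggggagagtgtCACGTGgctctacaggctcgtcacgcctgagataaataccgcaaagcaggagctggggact
Zcchc12 held 1 match, Six3 0, the Ebf1 starts 0 and 1, and Tac1 2. Of 32851 promoter windows of the same length, 66.2% held at least 1, so a match here is common and is a description of letters, not of binding.

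Meis2, a homeobox factor that is wide in septal and striatal neurons, was also lower. It stood at 791.4 CPM in the WT members and 441.1 in cKO, a ratio of 0.557 (0.505 to 0.615), against 0.927 in other neurons and 0.789 in those without Neurod2. Cells with 2 or more Meis2 UMIs were 79 in WT (53.7%, 45.3 to 62.0) and 54 in cKO (39.7%, 31.4 to 48.4); with at least 1 UMI after thinning they were 48.3% and 40.4%. Without the cells carrying Ebf1 or Tac1 the Meis2 ratio was 0.749 (0.671 to 0.836), and among cells with 2 or more Meis2 UMIs it was 0.730 (0.660 to 0.806). Pbx3, a partner of Meis factors, went from 102.9 to 40.97 CPM, a ratio of 0.398 (0.288 to 0.543), and Cpne5, a calcium-dependent membrane-binding protein, from 119.1 to 40.97, a ratio of 0.344 (0.250 to 0.466). Among members with at most 1 Ebf1 and Tac1 UMI their ratios were 0.483 and 0.692, nearer to 1. S100a10 had a ratio of 0.230 (0.143 to 0.355), Ifitm2 of 0.389, Dio3, which inactivates thyroid hormone, of 0.358, and Esco1, a cohesin acetyltransferase, of 0.351. In other neurons the ratios of S100a10, Dio3 and Esco1 were also below 1, at 0.557, 0.493 and 0.657. So were those of Pbx3, Cpne5 and Ifitm2, at 0.720, 0.785 and 0.908. In the cKO members 1 cell held 12 of the 25 S100a10 UMIs, and 1 cell held 10 of the 25 Dio3 UMIs.

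Reln and Nhlh2, genes of the Lhx5 subset and of Cajal-Retzius neurons, were lower in cKO although the Lhx5 subset was not smaller. Reln went from 240.7 to 114.1 CPM, a ratio of 0.474 (0.391 to 0.573), against 0.958 in other neurons. Cells with 2 or more Reln UMIs numbered 42 in WT and 32 in cKO, and the highest WT cells held 71, 50 and 49 UMIs against 29, 10 and 6 in cKO. Among the 56 WT and 57 cKO members with 2 or more UMIs of Lhx5 or Otx2 the Reln ratio was 0.429 (0.344 to 0.532). With at least 3 UMIs of Zcchc12 and Vstm2l demanded, 41 cells in each library, the direction of Reln turned over, to a log2 ratio of 0.13 from -1.04. Nhlh2, a helix-loop-helix factor, went from 76.4 to 34.4 CPM, a ratio of 0.450 (0.314 to 0.637), against 1.17 in other neurons and 0.7995 in those without Neurod2, with 10 and 11 cells of 2 or more UMIs.

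Onecut2, a homeobox factor of subcortical and septal neurons, was higher in the cKO members. It had 195 UMIs in WT and 458 in cKO members, or 126.2 and 335.0 CPM, a ratio of 2.66 (2.24 to 3.16), while the ratio was 0.914 in other neurons and 0.9495 in those without Neurod2. The difference between the log2 ratios of members and other neurons, here with 0.5 UMIs added to each sum in place of 5 CPM, was 1.54 (1.28 to 1.79). Members with 2 or more Onecut2 UMIs were 25 in WT (17.0%, 11.3 to 24.1) and 46 in cKO (33.8%, 25.9 to 42.4), and 17.0% and 27.9% had a UMI after thinning. Its highest cells held 26, 26 and 18 UMIs in WT and 49, 44 and 44 in cKO, and without the highest cell of each library the ratio was 2.74. The ratio was 2.12 in those with 2 or more Meis2 UMIs, 2.45 in those with at most 1, and 2.74 in those with Lhx5 or Otx2. Among the Lhx5 cells, 8 of 27 in WT and 24 of 34 in cKO had 2 or more Onecut2 UMIs. Onecut1 and Onecut3, its relatives, had 9 and 7 UMIs in WT and 30 and 22 in cKO, too few for the threshold of 50.

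**Figure D4:**
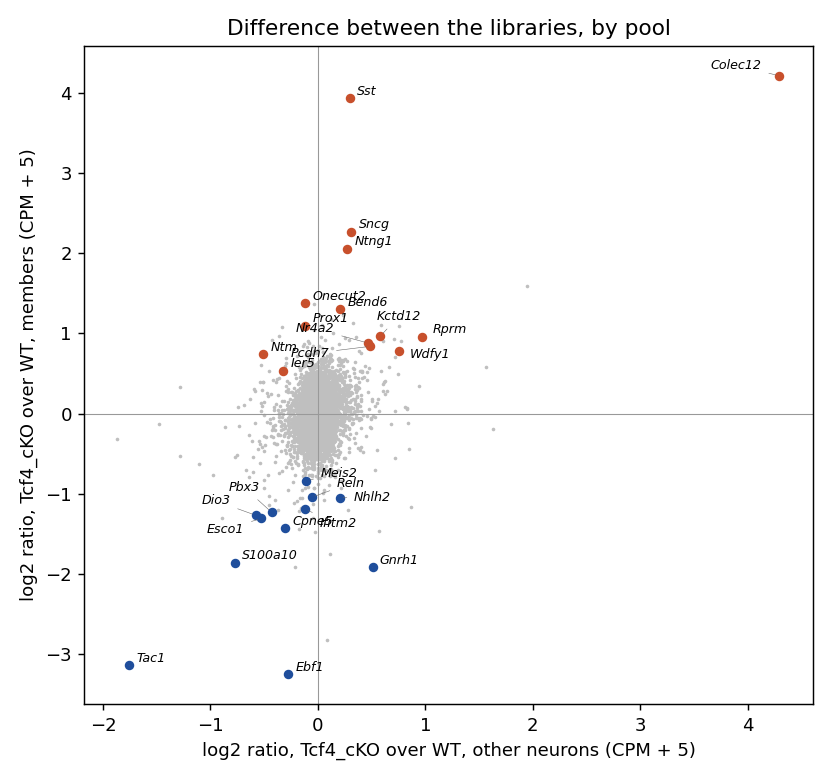
Log2 ratio of cKO over WT in other neurons (x axis) and in the Zcchc12/Vstm2l cells (y axis) for 7097 genes with at least 50 UMIs in members, with 5 CPM added. Named genes are orange where higher and blue where lower in cKO members. Onecut2 and Ebf1 lie near 0 on the x axis, while Colec12 and Tac1 differ in both pools. In other neurons without Neurod2, not drawn here, the ratio was 0.281 for Ebf1 and 0.9495 for Onecut2.

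Other genes higher in the cKO members were of smaller size or in fewer cells. Prox1, a homeobox factor, went from 32.4 to 74.6 CPM, a ratio of 2.31 (1.63 to 3.30) against 0.902 in other neurons, with 14 cells of 2 or more UMIs in each library. Nr4a2 went from 67.3 to 128.0 CPM, a ratio of 1.90 (1.48 to 2.45), with 15 and 27 cells, against 1.505 in other neurons and 1.68 in those without Neurod2. Bend6 had a ratio of 2.87 (1.83 to 4.61), against 1.18 in other neurons and 1.16 in those without Neurod2. Pcdh7, a protocadherin, had 1.84 (1.46 to 2.32), and was also higher in other neurons, at 1.45, and in those without Neurod2, at 1.45. Kctd12, an auxiliary subunit of GABA-B receptors, had 2.13 (1.45 to 3.16), against 1.54 in other neurons and 2.34 in those without Neurod2. Ntng1, a netrin-G, had 18 and 88 UMIs, of which 37 of the 88 came from 1 cell. Sncg, a synuclein, had 12 and 77 UMIs, 29 of them in 1 cell. Its ratio was also above 1 in other neurons, at 2.78 on 26 and 78 UMIs, and in those without Neurod2, at 2.93. Sst, the peptide of a class of interneurons, had 1 UMI in WT and 111 in cKO, but 68 and 36 of these were in 2 cells, so its ratio of 125.5 (22.1 to 5000) describes those cells. Ntm and Ier5 had ratios of 1.72 and 1.47, against 0.687 and 0.793 in other neurons and 1.58 and 0.985 in those without Neurod2. Wdfy1 and Rprm had 1.77 and 2.04 in members and 1.75 and 2.03 in other neurons, at like size, although Rprm was at 1.02 in those without Neurod2.

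Colec12, a scavenger receptor, had 0 UMIs in the WT members and 120 in the cKO members, at least 45.2-fold higher against a floor of 3 UMIs over the WT member pool. The cKO UMIs were spread over the members, 68 of 136 (50%) with at least 1, at a median depth of 8860 UMIs, against 53.1% of other neurons and 21 of 28 endothelial cells in cKO, at median depths of 8255.5 and 26021.5. Free RNA held it at 6.59 CPM in WT and 59.6 in cKO against 87.8 in the cKO members, and the part of free RNA in the UMIs per cell was not tested. Other neurons held it at 0.330 CPM in WT and 99.8 in cKO, a ratio of 302.

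Gnrh1, the precursor of the hormone that releases gonadotropins, had the largest fold of the named genes in WT, and came from a few cells. Its level was 1521 CPM in WT members and 399 in cKO, against 68.2 and 99.2 in other neurons. Of 2350 UMIs in the WT members, 1186 and 1144 came from 2 cells, and of 545 in the cKO members 542 came from 1 cell. Without the highest cell in each library, the cKO fold over other neurons was below 1, at -3.83 on the log2 scale. The level in other neurons came from a few cells too. Single cells held 1155 and 1059 of its 2271 UMIs in WT, and 1022, 931, 753, 661 and 144 of its 3568 UMIs in cKO. The Gnrh1 folds thus compare a few cells with a few cells. In all, 5 WT and 8 cKO cells of the series held at least 20 Gnrh1 UMIs. Of these 13 cells, 2 in WT and 1 in cKO were members, and 4 and 5 had 2 or more UMIs of both Zcchc12 and Vstm2l. Isl1 was at 2 or more UMIs in 5 of the 5 WT and 7 of the 8 cKO cells, and so was Six6, a homeobox factor needed for neurons of this hormone, in 5 and 7. Of the 6 cells with both genes that were no members, 3 held 2 or more Trpc4 UMIs, 1 held Lhx8 and St18, 1 held St18 and 1 held Neurod2. As background, neurons that make this hormone migrate from the nose into the septum and preoptic area.

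**Figure D5:**
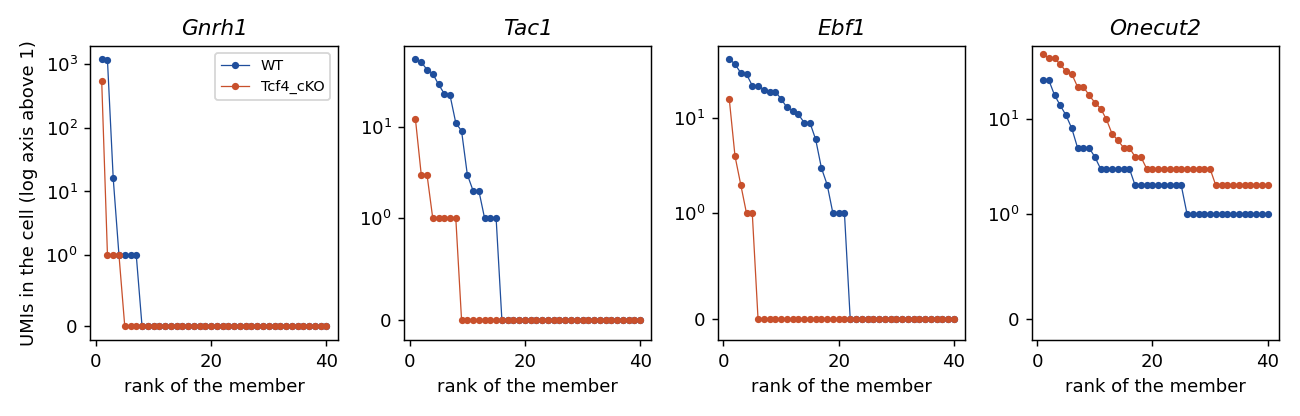
UMIs per cell of Gnrh1, Tac1, Ebf1 and Onecut2 in the 40 highest Zcchc12/Vstm2l cells of each library, ranked, on an axis that is logarithmic above 1. Gnrh1 comes from 2 WT cells and 1 cKO cell, Ebf1 and Tac1 from many more WT than cKO cells, and the Onecut2 curve of cKO lies above that of WT.

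Markers of other cell types were present at these levels in the members. The 14 astroglial genes summed to 1100 CPM in WT and 1027 in cKO, against 736 and 762 in other neurons, which were chosen to have few of them. Of the members, 129 in WT and 119 in cKO met the rule for neurons; 11 and 10 failed it by glial genes and 6 and 3 by cycle genes. Cycle genes summed to 114 and 206 CPM against 75.9 and 73.8. Red cell genes summed to 3988 and 1576 CPM against 1906 and 1796 in other neurons, with 2 members in each library holding over 0.1% haemoglobin UMIs. Of 4 tested red cell genes, 4 were at least 1.5-fold lower in the cKO members, and they count among the 142 lower genes. The 8 microglial genes summed to 0 and 2.19 CPM with 5 at 0 in both libraries. A doublet caller marked 4 members in each library. The part of these cells in the results was not tested, other than by repeating the counts without them: with members that met the neuron rule the genes higher and lower than in other neurons numbered 98 and 139, and those higher and lower in cKO 121 and 131.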

How the data were processed

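Single cells were measured in 1 WT and 1 Tcf4_cKO library. What the authors deposited are unnormalized UMI counts, with empty droplets. The version of Cell Ranger is 7.1.0 per the file headers. It is 2.1.1 in the submitters' processing notes, where the genome is mm10. Whether intronic reads and strand were counted is not given in the sources used here. The barcodes, cell limits and members were taken from the counts by the rule stated above; doublets were called with scrublet in scanpy 1.11.5 at an expected rate of 6% and kept. From the counts, CPM, log2(CPM + 5) and exact intervals were computed with numpy 2.4.6 and scipy 1.17.1, and checked on simulated data. The members and gene lists were chosen with earlier results of these data known.

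Genes entered a comparison with at least 50 UMIs over its pools and counted as past 2-fold (members against other neurons, same direction in both libraries) or past 1.5-fold (cKO against WT). Named genes had 50 UMIs and 50 CPM in the higher pool and a level above free RNA. They were the 15 highest and 10 lowest against other neurons, the 12 highest and 12 lowest between libraries by the interval bound nearest to 1, and 6 each way by the difference from other neurons. Not eligible were genes of the rule, Xist, Tsix and Y genes, and those of haemoglobin, ribosomal proteins or mitochondria; listed genes and markers were added. Neighbours came from 2000 variable genes and 30 principal components. Positions are from GENCODE vM21. Alternatives tried were other thresholds, depths, pseudocounts, scalings and comparison groups.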

Additional observations from a re-analysis of the deposited data

How the results depend on the processing

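With 1 library per genotype no result had a test, so a value is said here only to keep its size or to move. No paired analysis was possible because each genotype has 1 library. The share of Zcchc12/Vstm2l cells depended on depth and on the UMI threshold. Among all cells it was 1.53% in cKO with a minimum of 6700 UMIs, 0.457% in WT and 0.384% in cKO with at least 3 UMIs of both genes (difference -0.0730 percentage points), 4.92% and 3.95% with at least 1 (-0.973), and 0.257% and 0.244% after thinning (-0.0128), against a difference of -0.365 as reported. Among neurons and members it was 3.88% in cKO with 6700 UMIs, 1.20% and 0.987% with at least 3 (-0.214), 12.7% and 9.98% with at least 1 (-2.67), and 0.684% and 0.621% after thinning (-0.0626), against -1.02 as reported.

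The counts of genes depended on the value added to the CPM, on the UMI minimum and on the comparison group. Higher in members numbered 269 with 1 CPM added and 31 with 20, and 24 without Neurod2 cells; lower numbered 240, 55 and 29. Higher in cKO numbered 37 with 20 CPM added, 302 with at least 20 UMIs and 531 with no minimum; lower numbered 222 with 1 CPM added, 51 with 20, 343 with at least 20 UMIs and 623 with no minimum. Median-ratio scaling moved log2 values by at most 0.04.

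Among genes past the fold and list medians away from 0, 15 values changed direction; smaller values such as Isl1, and Magel2 in cKO (0.57 to -0.06), also did against neurons without Neurod2. The cause was not tested beyond what each setting leaves out. The log2 fold of Gnrh1 over other neurons in cKO became -4.36 with at least 3 UMIs of both genes, -3.77 in members that met the neuron rule, -3.99 without cells of Ebf1 or Tac1 and -3.83 without the highest cell, and its log2 cKO ratio became 5.04 in cells of 10000 to 20000 UMIs. Against neurons without Neurod2, Opcml became 0.47 and 0.46, the GABA list -0.39 and -0.33, the glutamate list 0.0665 in WT (over the genes that reach the UMI minimum in that comparison; over the genes measured against all other neurons it stayed below 0, at -0.00926), and the septal list -0.0180 in WT. Without cells of Ebf1 or Tac1 the log2 ratio of Tac1 became 0.35 and the striatal median 0.0821, in a setting that removes cells by those genes; with at least 3 UMIs Reln became 0.13 and the Cajal-Retzius median 0.61. The settings that leave out Ebf1 or Tac1 cells, Gnrh1 cells, cells with haemoglobin or the highest cell of a gene were chosen after seeing the data.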
